A study of Homo sapiens with 6 samples.

Results

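The regions described here are 2509 stretches of open chromatin that were found at the starts of protein-coding transcripts in PANC1 cells both with and without gemcitabine. PANC1 is an established human pancreatic carcinoma cell line, and gemcitabine is a deoxycytidine analogue that stalls DNA replication. The members were selected on the DNaseI-seq peak calls of both conditions: each is a peak of the gemcitabine library (50 nM) that overlapped a peak of the vehicle library (0.1% DMSO) by at least 1 bp and lay within 1 kb of a protein-coding start in the hg19 genome build, outside the mitochondrial genome. They make up 23.5% of the 10695 open regions of the gemcitabine library and 61.7% of its 4064 regions at starts. Because the peak calls chose them, their presence in both lists, their scores and their closeness to starts are given as a description, without a test.

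DNaseI-seq was done on 1 library per condition, so no difference between the peak lists has a replicate check, and the number of reads behind each list is unknown. RNA-seq was done on 2 biological replicates of each condition, after 48 h of vehicle or 50 nM gemcitabine, and it was used in no step of choosing the regions. The 4 RNA libraries hold 13194533 to 15766237 fragments on genes, and replicates of a condition differed by more than sampling noise. KRT7, a keratin of ductal epithelium, was at 1658 and 1551 FPKM in the vehicle libraries and at 1491 and 1498 FPKM in the gemcitabine libraries, where FPKM corrects the fragment number for transcript length and library size. None of the 9 acinar markers examined, among them the digestive enzymes PRSS1 and CPA1, exceeded 0.42 FPKM, and insulin was listed at 0. The ductal and carcinoma markers KRT8 (471 to 650 FPKM), KRT18 (336 to 472) and MUC1 (105 to 209) were also high, and CA2 was at 7.02 to 15.3 FPKM. Other markers went against a plain ductal label. KRT19 (3.05 to 6.91 FPKM), SOX9 (3.13 to 3.905) and EPCAM (2.09 to 4.29), also of ductal epithelium, were low, and CFTR, the chloride channel of pancreatic ducts, stayed at or below 0.0495 FPKM. The mesenchymal markers VIM (385 to 476 FPKM), TGFB1 (224 to 294), FN1 (45.2 to 90.1) and CDH2 (29.4 to 36.1) were well expressed. ZEB1 (7.67 to 11.3) and SNAI2 (2.91 to 6.82), of the same list, were low. The prohormone convertase PCSK1 was at 11.01 to 15.6 FPKM. These are bulk cultures, in which fewer cells of a type and less RNA per cell cannot be told apart.

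Transcription starts of active genes are usually kept free of nucleosomes by the transcription machinery and by factors that bind next to the start, and the exposed DNA is cut readily by DNaseI. Most human promoters lie in CpG islands, stretches rich in G and C that have kept their CpG dinucleotides and often carry GC boxes for the SP/KLF family and inverted or direct CCAAT boxes for NF-Y. Other promoters, poor in CpG, more often carry a TATA box or sites for signal-dependent factors such as AP-1. Neighbouring genes on opposite strands can start from one shared open region, an arrangement called head-to-head or divergent.

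Upstream sequences of 10 members are printed to show what these regions hold next to a start. They are the members that ranked high in both lists with a GC box or a CCAAT box (KHSRP, SP1, TTC9C), members at genes whose RNA rose (TENT5B, VWA7) or fell (EGR1, UNG, RRP9, H2AC25), and 1 short divergent promoter. Each stretch ends 1 base before the annotated start, runs 5′ to 3′ on the strand of the gene (on the plus strand for the divergent promoter), holds no annotated exon and comes from the GRCh37 reference, which is the build of the deposited lists. Capitals mark matches to the motif strings searched, on either strand: CCAAT (NF-Y), GGGCGG (the GC box), TGANTCA (AP-1), CACGTG (the E-box) and GCGCATGCG (NRF1), with N for any base.
KHSRP, chr19:6424823-6425022, minus strand: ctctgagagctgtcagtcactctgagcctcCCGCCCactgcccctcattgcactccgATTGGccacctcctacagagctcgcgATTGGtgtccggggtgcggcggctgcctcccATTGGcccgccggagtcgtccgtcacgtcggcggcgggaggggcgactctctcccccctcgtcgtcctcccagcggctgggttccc
SP1, chr12:53773760-53773959, plus strand: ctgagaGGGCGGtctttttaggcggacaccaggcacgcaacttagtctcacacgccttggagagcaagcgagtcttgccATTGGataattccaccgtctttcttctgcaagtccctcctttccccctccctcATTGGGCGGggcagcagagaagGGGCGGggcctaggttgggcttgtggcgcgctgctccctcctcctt
TTC9C, chr11:62495341-62495540, plus strand: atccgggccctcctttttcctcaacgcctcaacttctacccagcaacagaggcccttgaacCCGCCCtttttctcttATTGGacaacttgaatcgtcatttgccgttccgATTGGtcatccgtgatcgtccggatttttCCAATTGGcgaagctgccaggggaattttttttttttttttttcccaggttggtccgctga
TENT5B, chr1:27339342-27339541, minus strand: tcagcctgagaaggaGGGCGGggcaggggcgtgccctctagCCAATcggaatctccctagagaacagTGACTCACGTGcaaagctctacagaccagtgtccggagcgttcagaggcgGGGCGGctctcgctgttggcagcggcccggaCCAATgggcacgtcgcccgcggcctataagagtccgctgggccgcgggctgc
VWA7, chr6:31745106-31745294, minus strand: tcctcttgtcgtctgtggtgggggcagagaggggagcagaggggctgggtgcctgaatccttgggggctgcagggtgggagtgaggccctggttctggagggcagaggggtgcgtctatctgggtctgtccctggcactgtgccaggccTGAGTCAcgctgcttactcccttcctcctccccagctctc
EGR1, chr5:137800968-137801167, plus strand: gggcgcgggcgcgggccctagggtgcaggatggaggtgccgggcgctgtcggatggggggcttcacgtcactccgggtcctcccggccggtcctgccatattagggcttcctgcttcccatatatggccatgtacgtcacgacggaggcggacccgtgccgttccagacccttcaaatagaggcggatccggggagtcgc
UNG, chr12:109535723-109535922, plus strand: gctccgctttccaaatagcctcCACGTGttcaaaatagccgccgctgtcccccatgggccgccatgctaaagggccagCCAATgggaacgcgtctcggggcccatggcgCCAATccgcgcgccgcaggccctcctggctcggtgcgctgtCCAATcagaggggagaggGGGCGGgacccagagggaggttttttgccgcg
RRP9, chr3:51975921-51976120, minus strand: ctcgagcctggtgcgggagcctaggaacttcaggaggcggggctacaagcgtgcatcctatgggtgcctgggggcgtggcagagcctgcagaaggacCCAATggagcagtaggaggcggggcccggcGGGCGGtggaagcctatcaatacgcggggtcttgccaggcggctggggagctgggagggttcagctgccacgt
H2AC25, chr1:228645575-228645774, minus strand: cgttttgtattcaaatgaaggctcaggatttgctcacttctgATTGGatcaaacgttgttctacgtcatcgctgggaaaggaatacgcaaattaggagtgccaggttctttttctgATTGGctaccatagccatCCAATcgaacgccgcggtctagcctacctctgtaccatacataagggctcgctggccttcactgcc
between TAF6 and CNPY4, chr7:99717191-99717256, plus strand: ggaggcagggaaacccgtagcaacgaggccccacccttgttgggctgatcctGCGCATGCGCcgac

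KHSRP had 3 CCAAT boxes between 143 and 82 bases upstream of its start, all in the inverted orientation. TTC9C had 4 between 123 and 54 bases upstream, of which the last pair overlapped. The SP1 promoter carried 3 matches to GGGCGG, the box that the SP1 protein itself binds, and 1 of them overlapped a CCAAT box. In TENT5B an AP-1 match and an E-box overlapped, at 133 to 123 bases upstream. The stretch between TAF6 and CNPY4 is 66 bases long and held overlapping matches to the NRF1 string close to its end. None of the motifs searched was found in the 200 bases upstream of EGR1, which says only that these letters are not in that window.

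The regions were centred on the start rather than beside it. A protein-coding start lay inside 2386 of the 2509 members (95.1%), and the centre was within 250 bp of the nearest start in 74.5% and within 500 bp in 92.7%. The median centre lay 66 bp upstream of the start, and 67.8% of centres were upstream. Their median width was 1080 bp in the gemcitabine list and 956 bp in the vehicle list, against 1003 bp and 889 bp over all regions of each list. Members just inside the distance limit were those of RAET1E, which encodes a stress ligand of the NKG2D receptor, at 993 bp, and SH3TC1 at 975 bp. The nearest shared regions just outside it lay 1001 bp from GYPC, the gene of glycophorin C, and 1014 bp from SPATA2L.

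**Figure D1:**
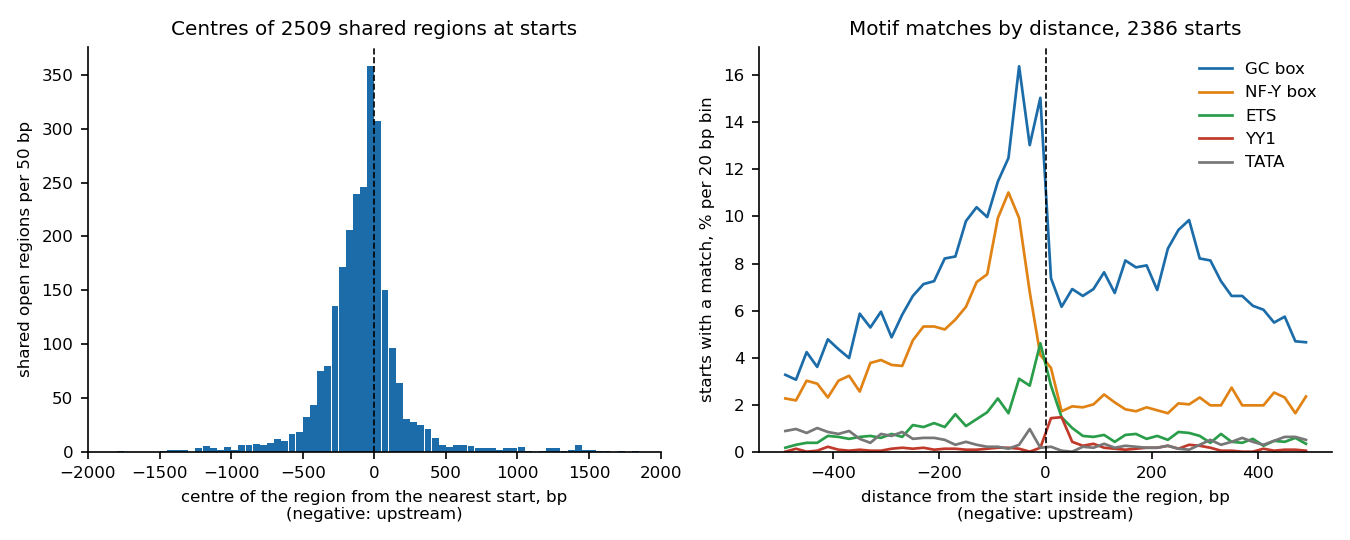
Left, number of shared open regions per 50 bp by the distance of their centre from the nearest protein-coding start, in bp. Right, percent of the 2386 starts inside a region with a motif match in each 20 bp bin. The fullest bin of centres lies 50 to 0 bp upstream and holds 358 regions, and matches to the GC box and the NF-Y box peak within 80 bp upstream.

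The overlap between the conditions was broad. The median overlap was 879 bp, or 83.1% of the gemcitabine region, and 2387 members (95.1%) overlapped by at least 50% of both regions. All but 9 members met a single vehicle region. The score was taken as -10 times log10 of the peak caller's p-value, because its lowest value was 50 under a p-value limit of 1e-05. Sharing went with the score: 88.0% of gemcitabine regions at starts with a score of at least 100 were shared (1015 of 1154) and 51.3% of those below it (1494 of 2910). The median score of members was 90.9 in the gemcitabine list and 85.4 in the vehicle list, against 65.6 for regions at starts found in the gemcitabine list alone. Since a peak near the calling limit can be missed in one library, a region found in 1 list is not shown to be closed in the other.

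Scores of the same region ranked alike only in part, with a Spearman correlation of 0.478 across the 2509 members, which all come from the same pair of libraries. The percentile rank of a member within its list changed by 10 points or less in 35.6% of members. It rose by more than 25 points from vehicle to gemcitabine in 454 members and fell by more than 25 points in 449. Ranking within each list centres these changes, so the balance of rises and falls carries no information on overall openness. The largest rise was at ITPKA, which encodes an inositol trisphosphate kinase, with a score of 50.3 in vehicle and 127 in gemcitabine. It was followed by the region shared by CDC26, a subunit of the anaphase-promoting complex, and PRPF4, a splicing factor (50.3 and 113), by PPP1R3E with BCL2L2 (51.4 and 122) and by PATL1, an mRNA decay factor (50.1 and 107). The largest fall was at the peptidase gene DPP9, from 170 in vehicle to 51.9 in gemcitabine. MED11, of the Mediator complex (124 and 50.3), the anion exchanger gene SLC26A6 (124 and 50.5) and UTP11, of the small ribosomal subunit processome (141 and 51.7), came next. All 8 lay near the calling limit in one of the lists.

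**Figure D2:**
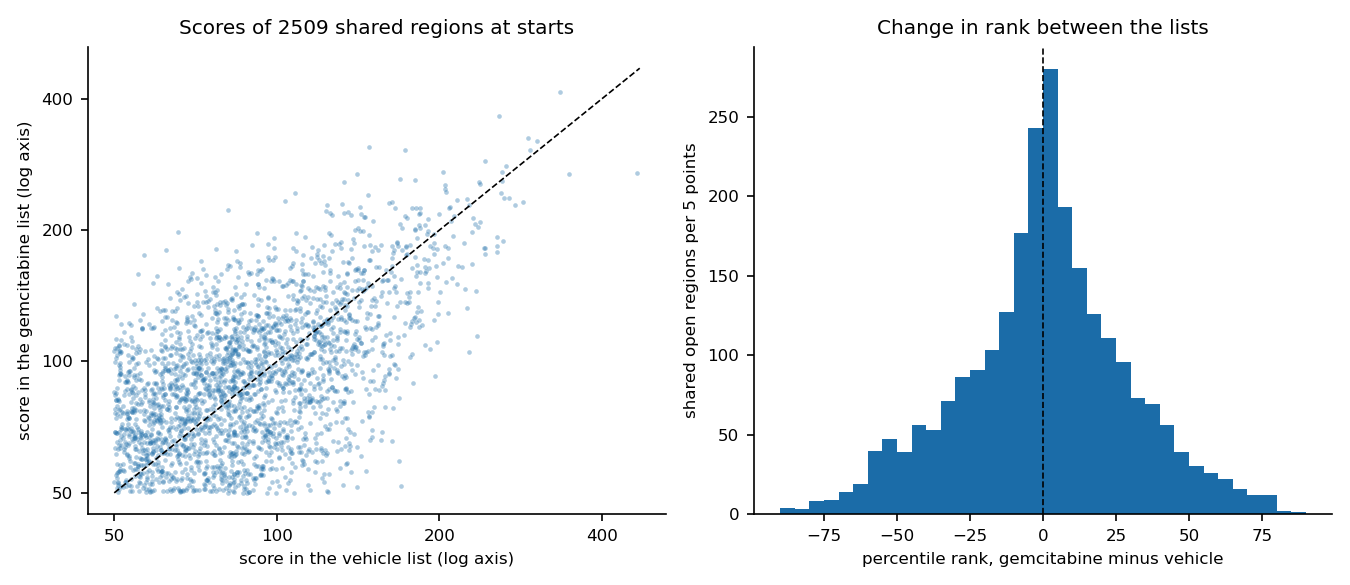
Left, score of each of the 2509 shared regions in the vehicle and the gemcitabine list, both on log axes, with the line of equal scores dashed. Right, change in percentile rank from the vehicle to the gemcitabine list. The cloud follows the line loosely (Spearman correlation 0.478), and the changes in rank spread to both sides of 0.

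The 6 members that stood highest in both lists were at KHSRP, TAF12, CDC27, TOMM40, SP1 and TTC9C. KHSRP encodes an RNA-binding protein of mRNA decay, and its region, chr19:6424687-6425668, had the highest gemcitabine score of all members, 414, and a vehicle score of 334. CDC27, a subunit of the anaphase-promoting complex, had the highest vehicle score, 465, with 270 in gemcitabine. The others scored 320 and 303 at TAF12, a subunit of TFIID, 306 and 294 at TOMM40, the pore of mitochondrial protein import, 325 and 291 at SP1, and 269 and 348 at TTC9C and HNRNPUL2, in gemcitabine and vehicle. The CDC27 region differed from the rest in composition, with 31.0% G and C in the 300 bases at its centre, which lay 700 bp inside the gene. CDC27 has near-identical copies elsewhere in the genome, and the effect of reads from them on this score was not tested.

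The widest member spanned 4215 bp at ARMC8, of a ubiquitin ligase complex, and the next were 3644 bp at HJV, the gene of hemojuvelin, and 3303 bp at NEDD9, an adhesion scaffold. The vehicle regions at these places were 2792, 2483 and 863 bp wide.

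In base composition the members looked like CpG island promoters. The 300 bases at the centre were CpG-rich (at least 50% G and C and a ratio of observed to expected CpG of at least 0.6) in 78.2% of members (95% Wilson interval 76.5 to 79.7%), against 54.9% of the promoter windows of all 20140 genes, which run from 250 bases before to 50 after a start. The share was 69.5% in regions at starts found in the gemcitabine library alone and 72.5% in those of the vehicle library alone. It was 6.86% in the 3034 shared regions far from starts. The median G and C content was 62.0% in members and 43.7% in shared regions far from starts. The intervals cover counting error only.

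GC boxes and CCAAT boxes were the most frequent of the 17 strings searched. GGGCGG was found in 64.2% of the members' 300-base windows, against 52.2% of all promoter windows and 11.01% of shared regions far from starts. CCAAT was found in 44.2%, against 35.8% and 36.8%. The ETS string CCGGAAG was in 18.7% of members, 11.8% of all promoters and 1.94% of distant shared regions, and the NRF1 string in 5.26%, 2.35% and 0.396%. The AP-1 string TGANTCA, bound by FOS and JUN family dimers, showed the opposite order, with 5.74% of members, 6.37% of all promoters and 30.6% of distant shared regions. The string CATTCC, part of the TEAD site, was in 12.4%, 12.8% and 25.6%, and TATAAA in 4.90%, 10.9% and 22.2%. Windows centred on a peak and windows placed on a start differ in where they lie, and strings rich in G and C have more chances in GC-rich windows. CCAAT is the shortest of the strings, and a shorter string has more chances to match. The order of different strings by frequency therefore rests in part on their length.

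**Figure D3:**
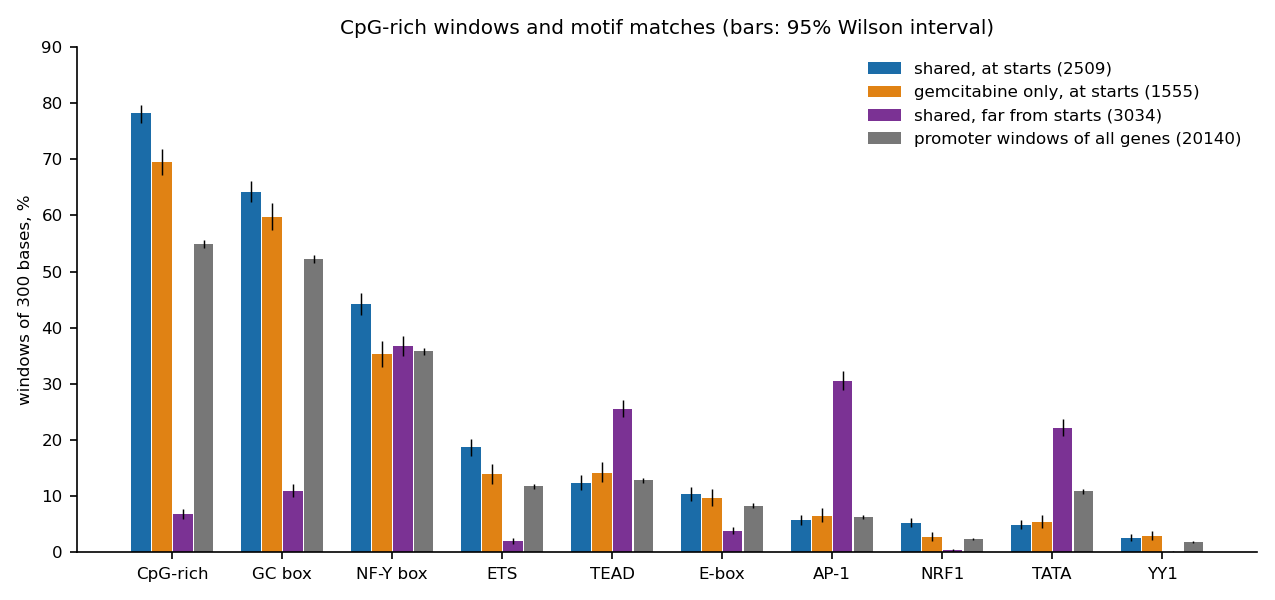
Percent of 300-base windows that are CpG-rich or hold a match to each motif string, for shared regions at starts, gemcitabine-only regions at starts, shared regions far from starts and promoter windows of all genes, with 95% Wilson intervals. Shared regions at starts are highest for CpG-rich windows (78.2%) and for GC boxes (64.2%), while AP-1 matches are most frequent far from starts (30.6%).

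Matches of some strings were concentrated at certain distances from the start. Among the 2386 starts inside a member, CCAAT was found in 11.02% at 80 to 60 bases upstream, against a median of 2.33% per 20-base bin beyond 300 bases. GGGCGG peaked at 60 to 40 bases upstream (16.4%, against 5.39% beyond 300 bases) and CCGGAAG in the last 20 bases before the start (4.61%, against 0.440%). The YY1 string AAGATGGCG lay downstream, with 1.47% at 20 to 40 bases after the start and 0.0419% per bin beyond 300 bases. The fullest bin of AP-1 held 0.796% of the starts, at 460 to 440 bases upstream. These are string matches and not bound sites.

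Many members served more than 1 gene. Starts of 2 genes lay within 1 kb of 530 members (21.1%), and 30 members had 3 or more. A head-to-head pair was found at 470 members (18.7%), with a median gap of 158 bp between the opposed starts. The share of head-to-head pairs was 13.1% among the 628 members with the lowest gemcitabine scores and 22.2% among the 627 with the highest. The share of CpG-rich windows stayed between 77.4% and 80.1% over 4 bins of score. Median width was 922.5 bp in the lowest bin and 1281 bp in the highest, and its part in the share of pairs was not tested. The most crowded members had 4 genes each. One covered RFXANK, a regulator of MHC class II genes, with BORCS8, MEF2B and a readthrough of these. Another covered COA8, BAG5 and KLC1, and the third lay in a histone cluster (H2BC21, H2AC20 and H2AC21) beside BOLA1. Members at NDUFA11, of respiratory complex I, and at FMC1 with the splicing gene LUC7L2 had 3.

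In all, 3052 of 20162 protein-coding genes (15.1%) had a member at a start. Chromosome 19, the chromosome densest in genes, had the highest share, with 351 of 1480 genes (23.7%) and 281 members. The X chromosome had 70 of 869 genes (8.06%).

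Most genes at these regions were expressed. Of the 3052 genes, 2969 have RNA values in the deposited table. Their median level was 27.8 and 26.9 FPKM in the vehicle libraries and 29.6 and 29.4 FPKM in the gemcitabine libraries. A level of at least 1 FPKM was reached by 94.4% to 95.3% of them in each of the 4 libraries. Among the 13381 genes with no open region in either list, the medians were 0.504 to 0.833 FPKM and 46.5% to 48.8% reached 1 FPKM. Genes with a region in the gemcitabine list alone had medians of 19.1 to 20.6 FPKM, and those with one in the vehicle list alone 24.6 to 26.1 FPKM. A level of 1 FPKM was reached by 90.8% to 92.7% of the former and 92.1% to 93.3% of the latter.

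The share of genes with a member rose with the RNA level. It was 0.929% of the 5705 genes below a mean of 0.1 FPKM in vehicle, 12.7% at 1 to 5 FPKM, 27.5% at 20 to 50 FPKM and 36.6% of the 1444 genes at 100 FPKM or more. Over all 11446 genes at 1 FPKM or more it was 24.6% (95% Wilson interval 23.8 to 25.4%), so most expressed genes had no region that met the rule in these lists. Within the members the score hardly followed the RNA level. The Spearman correlation across the 2969 genes was 0.0609 between vehicle score and vehicle FPKM and 0.0758 between the gemcitabine values, where genes at one region share its score.

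**Figure D4:**
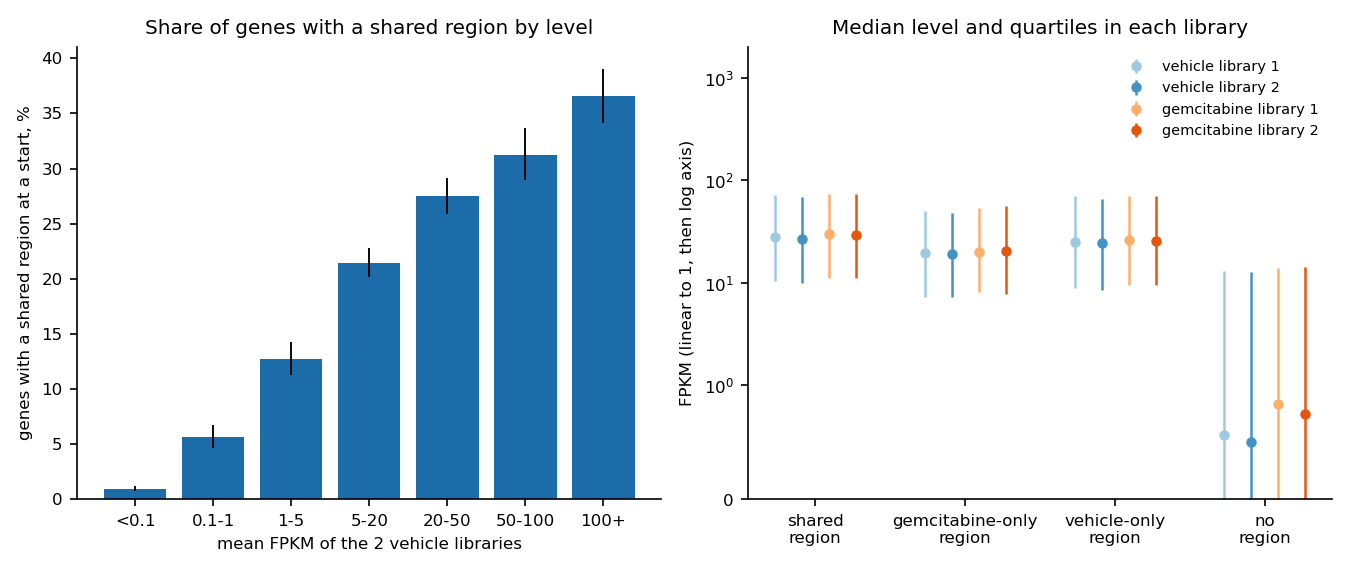
Left, percent of genes with a shared region at a start by the mean FPKM of the 2 vehicle libraries, with 95% Wilson intervals. Right, median FPKM with quartiles in each RNA library for genes with a shared region, a gemcitabine-only region, a vehicle-only region or no region. The share rises from 0.929% below 0.1 FPKM to 36.6% at 100 FPKM or more, and the 4 libraries of each class lie close together.

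A few members lay at genes with very low FPKM. For 13 members every gene with values stayed below a mean of 0.1 FPKM in both conditions. The strongest of them, named after its values were seen, was at FEM1A, which encodes a substrate receptor of a ubiquitin ligase, with scores of 196 in gemcitabine and 195 in vehicle and RNA at 0.0344 and 0 FPKM in vehicle and 0 and 0 in gemcitabine, which rests on 2 fragments in all. ESR2, the gene of the second estrogen receptor, was at 0.0518 to 0.102 FPKM under scores of 75.1 and 85.7, yet it had 232 and 252 fragments in vehicle and 202 and 186 in gemcitabine. A low FPKM was therefore not always a lack of fragments.

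Gene families known to be silent in this tissue lacked members. None of 414 olfactory receptor genes (95% Wilson upper limit 0.919%) and none of 94 keratin-associated protein genes had one. Zinc finger genes, a family that is broadly expressed at low level, had members at 72 of 509 (14.1%, against 15.1% of all genes).

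Response to gemcitabine was read from the RNA, which is independent of the peak calls. Genes were called with edgeR's quasi-likelihood test at a Benjamini-Hochberg adjusted p under 0.05, a fold change over 1.5, a mean of at least 0.1 FPKM in 1 condition and a difference of at least 1 FPKM. Over all 14854 genes tested, 5.69% were called higher and 4.43% lower after gemcitabine. Of the 2936 tested genes with a member, 136 were called higher (4.63%, 95% Wilson interval 3.93 to 5.45%) and 158 lower (5.38%, 4.62 to 6.26%). The share called higher was below that of all genes and the share called lower above it. The median log2 fold change was -0.02 against 0.01 over all genes tested. With scaling to library totals in place of TMM factors, 202 were called higher and 93 lower, and the median of all genes moved from 0.01 to 0.12, so the balance of rises and falls rests on the scaling. Genes with no region were called higher in 6.42% and lower in 4.17%.

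Changes in rank and changes in RNA were close to unrelated across genes. The median rank change was 0.972 points at the 136 genes called higher, 3.68 points at the 158 called lower and 0.803 points at the 2642 others. The Spearman correlation of rank change and log2 fold change was 0.0258 across the 2936 genes. ITPKA, at the largest rise in rank, was called higher with a log2 fold change of 0.71, but its FPKM of 5.99 and 2.09 in vehicle overlapped the 5.78 and 6.38 in gemcitabine. The RNA of DPP9, at the largest fall, was at 50.5 and 45.3 FPKM in vehicle and at 53.9 and 51.4 in gemcitabine, and it was not called.

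Rises and falls were shared out unevenly over the kinds of region. At members that were not CpG-rich, 57 of 608 tested genes (9.38%, interval 7.31 to 11.95%) were called higher and 24 (3.95%) lower. At CpG-rich members 79 of 2349 (3.36%, 2.71 to 4.17%) were called higher and 134 (5.70%) lower. The same split was present away from the members, since over all tested genes 9.04% of those with a promoter window that was not CpG-rich and 4.07% of those with a CpG-rich one were called higher. Members with an AP-1 match had 21 of 167 genes higher (12.6%, 8.37 to 18.5%) and 8 lower (4.79%). The share higher with an AP-1 match was 16.3% (14 of 86) where the window was not CpG-rich and 8.64% (7 of 81) where it was, against 8.19% (43 of 525) and 3.17% (72 of 2269) without the match. Genes with a member and AP-1 in the promoter window, rather than at the centre of the region, had 8 of 124 higher (6.45%, 3.31 to 12.2%). This interval overlaps that of the 21 of 167, and the difference was not tested. Genes without a member and with AP-1 in the promoter window had 69 of 661 higher (10.4%).

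Members with the E-box CACGTG showed the opposite balance, with 29 of 310 genes lower (9.35%, 6.59 to 13.1%) and 8 higher (2.58%). Under scaling to library totals 17 of them were called lower. Among all tested genes with CACGTG in the promoter window 9.38% were called lower, so this share was not particular to the members. Of the 17 strings searched, others reached similar shares. Members with TATAAA had 14 of 139 genes lower (10.1%, 6.09 to 16.2%) and 10 higher (7.19%). Those with the FOX string TGTTTAC had 10 of 93 higher (10.8%, 5.95 to 18.7%) and 3 lower (3.23%). No test was made between these overlapping sets, and the interval of each covers counting error only, with genes that share a region counted apart.

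At head-to-head members 27 of 923 tested genes were called higher (2.93%, 2.02 to 4.22%) and 40 lower (4.33%, 3.20 to 5.85%), against 5.69% and 4.43% of all genes tested. Of 439 pairs with both genes tested, 62 had at least 1 called gene and 1 had both called, in opposite directions: RRP9, a protein of the U3 small nucleolar complex, fell by 1.43 on the log2 scale and PARP3, a DNA-damage ADP-ribosyltransferase whose start lies 441 bp away, rose by 0.94. Across the 439 pairs the Spearman correlation was 0.126 for the log2 fold changes and 0.140 for the vehicle levels. Both genes were at 1 FPKM or more in vehicle in 387 of 455 pairs, and the higher of them exceeded the lower by a median of 2.86-fold there.

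**Figure D5:**
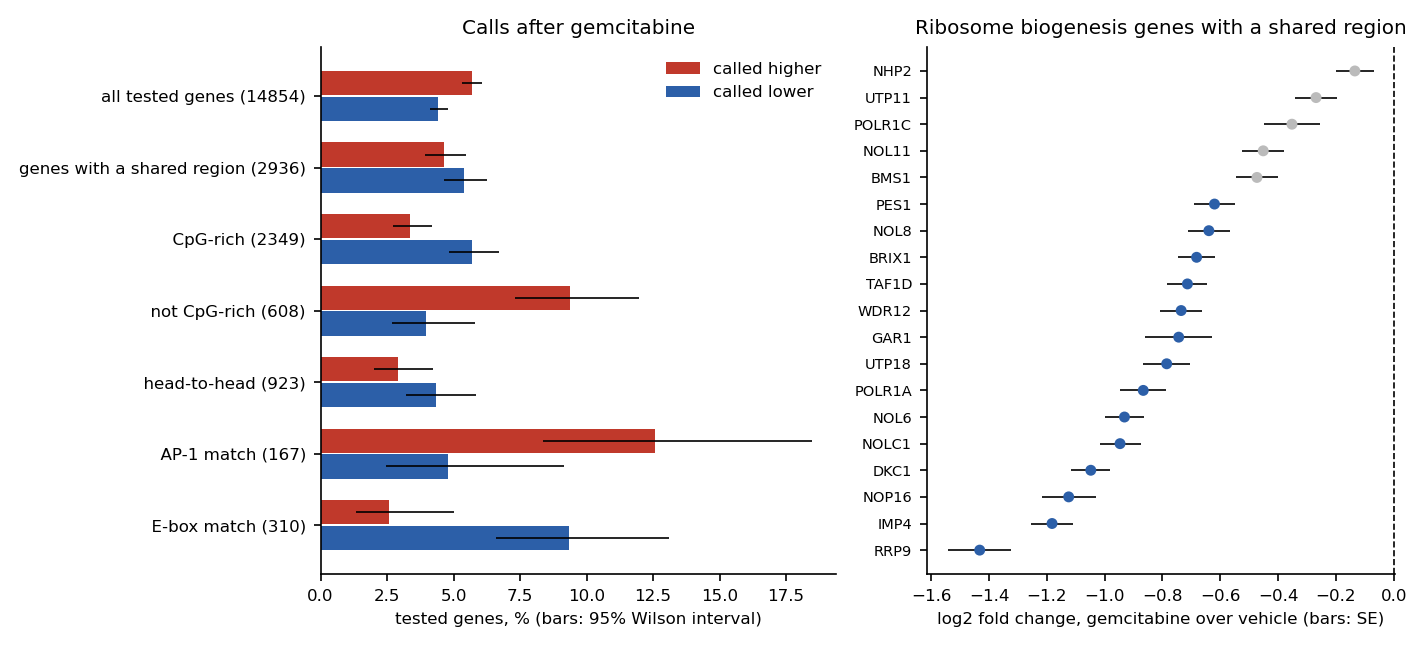
Left, percent of tested genes called higher or lower after gemcitabine, for all tested genes, genes with a shared region and kinds of shared region, with 95% Wilson intervals and the number tested in brackets. Right, log2 fold change with standard error of the 19 ribosome biogenesis genes with a shared region, in blue where called lower. Genes with a shared region are called higher in 4.63% and lower in 5.38%, against 5.69% and 4.43% of all genes. Rises are more frequent at regions that are not CpG-rich, and all 19 ribosome biogenesis genes have values below 0.

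Among called genes that averaged at least 1 CPM, were above 0 in all libraries and had conditions apart, the largest rise at a member was that of ELF3, an ETS factor of epithelia. It had 66 and 60 fragments in vehicle and 316 and 340 in gemcitabine, a log2 fold change of 2.49 ± 0.14 (SE, n = 2 per condition, edgeR adjusted p = 3.32e-08). Its region, chr1:201978414-201980087, scored 86.0 in vehicle and 94.8 in gemcitabine, a rank change of 3.78 points. GPSM3, a regulator of G protein signalling, went from 10 and 10 fragments to 53.4 and 45.6 (log2 fold change 2.41 ± 0.34), under a region that was among the strongest in both lists (238 and 208). IFIT3, an interferon-induced gene, went from 39 and 28 fragments to 162 and 141 (2.28 ± 0.21). In these 3 genes each gemcitabine library lay above both vehicle libraries, as the choice of genes required.

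TENT5B, a noncanonical poly(A) polymerase, had 60 and 69 fragments in vehicle and 289 and 248 in gemcitabine, a log2 fold change of 2.17 ± 0.15. STRA6, a receptor for vitamin A transport, had 77 and 83 against 327 and 320 (2.13 ± 0.13). ATOSB rose by 1.70 ± 0.10 on the log2 scale and VWA7 by 1.60 ± 0.22. The score rank of the regions of IFIT3, TENT5B, STRA6, ATOSB and VWA7 was lower in gemcitabine than in vehicle, by 29.0 to 45.2 points, while their RNA was higher. Their gemcitabine scores were 59.2, 82.6, 71.4, 51.2 and 60.2, against a calling limit of 50. The regions of STRA6 and ATOSB lay within the gene, more than 1 kb from either end. RNA was measured per gene, so which transcript rose is not known. Among the other named rises the score rank changed by 3.78 points at ELF3, 9.86 at IL24 and -0.61 at GPSM3. Over all 136 genes called higher, the rank was higher in gemcitabine in 52.9%. IL24, a cytokine gene whose start lay outside its region, rose by 1.85 ± 0.28 from 25 and 17 fragments to 65 and 76. It was no longer called without vehicle replicate 1, where the value was 2.20, and its FPKM overlapped between conditions (1.07 and 4.99, against 4.22 and 4.06).

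By the same rule, falls at members were led by EGR1, an immediate-early zinc finger factor, with 3383 and 3741 fragments in vehicle and 990 and 932 in gemcitabine. Its log2 fold change was -1.78 ± 0.07 (SE, n = 2 per condition, edgeR adjusted p = 3.33e-09), while its region scored 85.3 in vehicle and 99.3 in gemcitabine. UNG, the uracil-DNA glycosylase of base excision repair, went from 1967 and 1997 fragments to 589 and 665 (-1.55 ± 0.08), with scores of 86.7 and 86.9. TFAP4, a helix-loop-helix factor that binds E-boxes, went from 548 and 625 to 197 and 162 (-1.59 ± 0.11), and its region rose by 50.5 points in rank. Each of these genes had an open region within 1 kb of a start in both lists, as the choice of members required, while the RNA fell.

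RRP9 had 403 and 433 fragments in vehicle and 140 and 146 in gemcitabine (-1.43 ± 0.11). The histone genes H2AC6 and H2AC25 had log2 fold changes of -1.34 ± 0.17 and -1.31 ± 0.30, and H2AC25 was no longer called without vehicle replicate 2 (-1.12). KLRG1, a lymphocyte receptor gene whose region also covers the start of M6PR, had 27 and 19 fragments against 8 and 8 (-1.40 ± 0.44). It was no longer called without vehicle replicate 1 (-1.08) or with DESeq2 (-1.41).

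Among ribosome biogenesis genes, members were found at 19 of 50 (38.0%, against 15.1% of all genes). Counting only genes at 1 FPKM or more in vehicle, 19 of 49 had one, against 24.6% of all genes at that level. Of the 19, 14 were called lower and none higher. By comparison, 5.38% of tested genes with a member and 4.43% of all genes tested were called lower. The log2 values of the 19 had their median at -0.74. All 19 values were below 0. Over the whole list 31 of 49 tested genes were lower (median -0.70). DKC1, the pseudouridine synthase of box H/ACA particles, had 158 and 145 FPKM in vehicle and 77.7 and 68.5 in gemcitabine (log2 fold change -1.05 ± 0.07). NOLC1, a nucleolar chaperone, had 175 and 162 against 99.4 and 94.5 (-0.95 ± 0.07), and IMP4, of the U3 particle, fell by 1.18 ± 0.07. The highest level belonged to NHP2, also of box H/ACA particles (218 FPKM, mean in vehicle), which was not called at -0.13, and the next to TAF1D (209) and BRIX1 (205), which were. The lowest belonged to RRP9 (17.7), BMS1 (17.1) and POLR1A, the catalytic subunit of RNA polymerase I (15.03), and of these BMS1 was not called. Library totals left 11 calls, and limma on log2 FPKM left 6 with a pseudocount of 1 and 7 with 0.1. PES1 (-0.56 without vehicle replicate 1 or gemcitabine replicate 1) and GAR1 (-0.58 without gemcitabine replicate 1) lost their calls when single libraries were left out, and PES1 (-0.51), BRIX1 (-0.57) and NOL8 (-0.53) lost theirs with library totals.

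Ribosomal protein genes, by contrast, had members at 28 of 88 (31.8%, against 15.1% of all genes). At 1 FPKM or more in vehicle 28 of 83 had one, against 24.6% of all genes. None of the 28 was called. Their mean vehicle levels ran from 244 FPKM for RPS26 to 3082 for RPL35, followed by RPL36 (2028) and RPL27 (1847). Their median log2 fold change was -0.10. Proteasome subunits had members at 15 of 39 (38.5%), and at 14 of the 36 at 1 FPKM or more in vehicle. None of 14 tested genes with a member was called, and the median was 0.05. The levels ran from 299 FPKM for PSMA4 to 32.1 FPKM for PSMB10, an inducible catalytic subunit.

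Of 22 checkpoint genes 8 had a member, and only the phosphatase gene CDC25C was called (higher, 0.62 ± 0.10, but 0.52 and not called without vehicle replicate 2). ATR, the kinase that responds to stalled forks, had 1412 and 1702 fragments in vehicle and 1158 and 1175 in gemcitabine (-0.30).

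Of 40 replication genes 13 had a member (32.5%, against 15.1% of all genes). At 1 FPKM or more in vehicle 13 of 39 had one, against 24.6% of all genes. The helicase subunits MCM3 (-0.72 ± 0.07) and MCM6 (-0.84 ± 0.07) were called lower. MCM7, the most expressed at 344 FPKM, had -0.58 and was not called, and PCNA, the sliding clamp, had -0.34. The median was -0.09, and 0.02 with library totals.

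Genes that handle gemcitabine itself had members at 6 of 23 (26.1%, against 15.1% of all genes), none of them called. At 1 FPKM or more in vehicle 6 of 20 had one, against 24.6% of all genes. DCK, the kinase that activates the drug, had 766 and 873 fragments in vehicle and 764 and 748 in gemcitabine, a log2 fold change of -0.00 ± 0.08, although its FPKM was 32.7 and 21.0 in vehicle and 45.2 and 91.2 in gemcitabine. RRM2, the small subunit of ribonucleotide reductase, which the drug inhibits, had 4480 and 4569 against 4159 and 4346 (0.02 ± 0.07). RRM2B, an alternative form of that subunit, had 471 and 514 against 523 and 593 (0.30 ± 0.09). SAMHD1, a dNTP hydrolase, was at 708 and 800 against 912 and 876 (0.36 ± 0.08), NME1, a nucleoside diphosphate kinase, at -0.34 ± 0.07, and POLA1, the primase-associated polymerase, at -0.41 ± 0.07.

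Of 41 interferon-stimulated genes 5 had a member (12.2%, 95% Wilson interval 5.32 to 25.5%, against 15.1% of all genes), and 4 of the 5 were called higher: IFIT3, the RNA sensor RIGI (1.43 ± 0.10), and STAT2 (1.02 ± 0.09) and IRF9 (1.01 ± 0.19), subunits of the factor that drives these genes. IRF9 was no longer called without vehicle replicate 2 (0.81). BST2, at 447 FPKM in vehicle, was not called (-0.02). Over the list 21 of 39 tested genes were higher (median 0.93), most of them without a member at a start. At 1 FPKM or more in vehicle, 4 of 31 genes of the list had a member, against 24.6% of all genes at that level. Of 30 NF-kB genes 4 had a member (13.3%, 5.31 to 29.7%), with values for 3, and 3 of the 20 at 1 FPKM or more had one. RELB, of the noncanonical pathway, went from 165 and 133 fragments to 382 and 376 (1.46 ± 0.13) and its partner NFKB2 from 723 and 714 to 1250 and 1377 (0.98 ± 0.08), while NFKBIB, an inhibitor, had -0.39 and was not called.

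Among immediate-early and AP-1 genes 10 of 30 had a member (33.3%, against 15.1% of all genes). At 1 FPKM or more in vehicle 10 of 26 had one, against 24.6% of all genes. Of the 10, 1 was called higher and 3 lower. IER5 was higher (0.70 ± 0.08). IER2, an early response factor, was called lower (-0.64 ± 0.10), but not without vehicle replicate 1 (-0.58), without gemcitabine replicate 1 (-0.46) or with library totals (-0.53). JUND (107 FPKM), IER3 (73.9), KLF10 (20.2), ATF3 (17.99) and FOSL1 (14.6) had members and were not called.

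Histone genes had members at 24 of 70 (34.3%, against 15.1% of all genes), though only 13 of these 24 could be tested. At 1 FPKM or more in vehicle 11 of 14 histone genes had one, against 24.6% of all genes. Replication-dependent histone mRNAs end without a poly(A) tail, and their near-identical copies share reads, so their values are uncertain. Of the 13 genes, 5 were called lower and 3 higher. H2BC12, the most expressed, went from 635 and 690 fragments to 331 and 337 (-0.87 ± 0.09), and H2AC11 rose by 1.00 ± 0.14. H2AC7 was called higher on very few fragments, with 0 and 1.14 in vehicle and 7.90 and 4.02 in gemcitabine, and no fold is given for it.

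Of 35 pancreatic lineage factors 1 had a member, ELF3 (2.86%, 95% Wilson interval 0.506 to 14.5%, against 15.1% of all genes). Of 32 epithelial and mesenchymal genes 2 had one (6.25%, 1.73 to 20.1%), an interval that holds the share of all genes. Both lists mix expressed and silent genes. At 1 FPKM or more in vehicle, 1 of 13 lineage factors and 2 of 26 epithelial and mesenchymal genes had a member, against 24.6% of all genes at that level. The 2 epithelial genes were KRT8, a keratin of simple epithelia (486 FPKM in vehicle, 0.29 and not called), and ESRP2, an epithelial splicing regulator, which went from 788 and 788 fragments to 406 and 390 (-0.87 ± 0.08). Of the 26 transcription factors that the study names, 9 had a member (34.6%), as did 9 of the 21 at 1 FPKM or more in vehicle. TCF3 (207 FPKM) and NFE2L1 (131) were among the most expressed and SP1 (29.2), NFKB2 (20.7) and MXD1 (1.14) were the least, and only NFKB2 and EGR1 were called.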

How the data were processed

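Open regions were measured by DNaseI-seq and RNA by RNA-seq in PANC1 cells. Open regions were called by the authors, 1 list per condition, with MACS (p-value limit 1e-05, hg19), and the deposited lists give positions and a score. The aligner and the version of MACS are not given in the sources used here. Single-end RNA reads were aligned by the authors with TopHat2 2.0.8, followed by Cuffdiff 2.0.2 on protein-coding genes of Gencode version 15. The deposited table holds estimated counts of fragments per gene, not normalized, and the FPKM that the authors obtained from Cuffdiff. The kit is not stated to keep strand, so reads of overlapping genes cannot be told apart.

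Starts came from Gencode version 44 carried over to hg19, later than the authors' version, and genes were matched by Ensembl ID (18969 of 20461 genes of the table). A gene had a member if any protein-coding start was within 1 kb of it, and a member was named by the start nearest its centre. CpG content and exact motif strings, both strands, were read in the 300 bases at the centre from GRCh37. Estimated counts were rounded, and edgeR 4.0.16 in R 4.3.3 was run on genes whose 4 libraries summed to 10 fragments or more (TMM, quasi-likelihood, Benjamini-Hochberg, no covariate). Standard errors were derived from each F statistic and its fold change. The procedure was tested on simulated data. Alternatives were DESeq2 1.42.0, limma 3.58.1 on log2(FPKM + 1) and log2(FPKM + 0.1), other scalings, filters and thresholds, left-out libraries and other definitions of a member.

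The members, gene lists, motif strings and the rule for named genes were chosen with earlier results of these data known. The rule named the 6 members highest in both lists, 8 rises and 8 falls (called genes of largest change, averaging 1 CPM or more, above 0 in all libraries, with conditions apart), the 4 largest rises and falls in rank, the widest 3, those next to the distance limit, the 5 with most genes, and the 3 most and 3 least expressed members of each list. Some genes that meet the rule are not reported here. The table's library index could not be tied to the labels' replicate numbers, so replicate numbers here only tell libraries apart, and p-values measure the spread between these libraries. A further 2 columns of Cuffdiff-scaled values were not used.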

Additional observations from a re-analysis of the deposited data

How the results depend on the processing

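With 1 DNaseI library per condition, sharing and rank changes have no replicate error, and the depth of those libraries is unknown. The number of members stayed between 2193 and 2786 under other rules for overlap, distance and starts, and of genes between 2778 and 3520. With a score of at least 100 in both lists, 573 members and 747 genes were left, with 34 genes called higher, 39 lower and 79.9% of members CpG-rich. The share of genes at 1 FPKM with a member, 24.6%, was 23.4% with a reciprocal overlap of 50%, 27.2% at 5 kb, 21.8% with 1 start per gene, 5.94% at that score, 22.0% at a limit of 0.1 FPKM and 27.0% at 5 FPKM. It was 24.5% and 24.6% without vehicle replicate 1 and vehicle replicate 2.

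CpG-rich members were 66.2% with limits of 55% G and C and a ratio of 0.65, and 82.1% over whole regions. The 136 rises and 158 falls became 202 and 93 with library totals, 62 and 31 with limma on log2(FPKM + 1), 97 and 49 on log2(FPKM + 0.1), and 559 and 741 with adjusted p alone. Leaving out 1 library gave 123 to 163 rises and 141 to 181 falls. With DESeq2 there were 125 and 152. The cause of these shifts was not tested. The 50 called genes that met the naming rule, not all of them reported here, were followed singly under DESeq2, library totals and left-out libraries. None of these alternatives reversed a gene, and 14 genes lost the call in at least 1. The limma runs and the other filters and thresholds were not read for single genes, so the losses under those settings are unknown. Counts at regions with AP-1, with an E-box, without CpG richness and of ribosome biogenesis genes were recomputed as well, chosen after seeing the data: limma on log2(FPKM + 1) gave 13, 7, 33 and 6. No paired analysis was possible because nothing links the table's library index with the numbers in the sample labels.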
